A study of Mus musculus with 6 samples.

Results

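The 39 Hox genes analysed here are all the protein-coding genes of the Hoxa, Hoxb, Hoxc and Hoxd clusters in the GENCODE vM21 annotation, chosen by symbol from 21755 protein-coding genes on chromosomes 1 to 19 and X. Hox genes encode homeodomain transcription factors that give cells their position along the head-to-tail axis of the embryo. Their order along each cluster follows the order of their expression domains, and the forebrain lies in front of all of these domains. Polycomb repressive complexes keep the clusters shut there under trimethylated histone H3 lysine 27. The data hold DNA ends and no RNA, so neither this silence nor the labelled cell type could be checked against transcripts.

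Break ends had been mapped by BLISS, which tags free double-strand ends in fixed nuclei with adaptors and sequences the DNA next to them. The libraries carry the titles Step2, Step1 and Con (2 libraries each, 6 in all), every one from sorted forebrain neurons of CK-p25 mice after 2 weeks of induction by taking doxycycline out of the diet. All 3 groups, Con included, therefore carry the same transgene and the same induction. CK-p25 mice make p25, an activator of the kinase Cdk5, in forebrain neurons under the Camk2a promoter once doxycycline is gone. No label says what sets Con, Step1 and Step2 apart or whether replicates come from different animals, so each p-value below measures only how far these libraries differ among themselves, and that spread may be technical.

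Depth was 1526487 and 1480461 reads in the Step2 libraries, 2403238 and 2043098 reads in the Step1 libraries, and 2300995 and 2273508 reads in the Con libraries. A read was counted at its 5′ end, the base next to the labelled break. Counts were scaled to CPM, which brings each library's reads outside 26 piled-up windows to the same depth, and none of those windows touched a Hox cluster. Such values are shares of a library, not breaks per cell. A second scale, fold over genome, divides reads per Mb in a region by reads per Mb over chromosomes 1 to 19 and X in the same library.

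Hoxa holds 11 genes on chromosome 6 (mm10, 52145590 to 52270880 with 10 kb added on each side), Hoxb 10 genes on chromosome 11 (96184316 to 96378256), Hoxc 9 genes on chromosome 15 (102911103 to 103046852) and Hoxd 9 genes on chromosome 2 (74658310 to 74775142). The regions span 125.3, 193.9, 135.8 and 116.8 kb and 571.8 kb in all. They were richer in G and C than the genome (48.7% against 41.8%) and held fewer soft-masked repeats (18.5% against 34.3% of bases). Gene starts within them were richer still: the 2001 bases around Hox starts were 55.8% G or C, against 50.5% around all protein-coding starts. Observed over expected CG dinucleotides were 0.610 at Hox starts and 0.505 at all starts.

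Promoter sequences show where ends fell just before annotated Hox starts. Of the 39 genes, 22 had an entry in the RefSeq promoter table (GRCm38.p6, the mm10 assembly), with 24 entries. The sequences were to be those of the 3 starts with the most distinct end positions within 1 kb and the 1 with the fewest. Hoxb13 had the most (19 positions), followed by Hoxa5, Hoxa7 and Hoxa10 with 12 each, and Hoxa4 had the fewest, at 0. Hoxb13 and Hoxa4 are named only. Hoxb8, with 2 positions, was the matched start with the fewest. Nfe2l1, a stress-response transcription factor gene beyond the Hoxb cluster and the neighbour with the most positions (47), is set beside them as the opposite extreme. Hoxb8 and Nfe2l1 were chosen after their values were seen. Each line gives the 250 bases before the RefSeq start, 5′ to 3′ along the gene, and capitals mark bases at which a read 5′ end lay on either strand in any of the 6 libraries.
Hoxa10: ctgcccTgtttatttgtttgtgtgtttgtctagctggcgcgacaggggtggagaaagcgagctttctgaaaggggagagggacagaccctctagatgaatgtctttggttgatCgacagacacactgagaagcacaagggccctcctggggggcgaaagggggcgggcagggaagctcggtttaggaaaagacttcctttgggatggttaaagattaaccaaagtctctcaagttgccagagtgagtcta
Hoxa5: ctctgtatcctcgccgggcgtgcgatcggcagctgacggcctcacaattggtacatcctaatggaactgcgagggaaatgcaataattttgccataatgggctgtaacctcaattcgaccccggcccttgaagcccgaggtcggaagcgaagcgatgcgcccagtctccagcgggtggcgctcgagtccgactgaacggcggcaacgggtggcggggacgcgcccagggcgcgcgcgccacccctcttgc
Hoxa7: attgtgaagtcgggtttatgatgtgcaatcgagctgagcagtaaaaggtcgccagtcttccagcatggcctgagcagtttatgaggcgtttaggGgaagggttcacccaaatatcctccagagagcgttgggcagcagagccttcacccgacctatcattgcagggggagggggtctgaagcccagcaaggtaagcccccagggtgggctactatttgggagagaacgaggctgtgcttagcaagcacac
Hoxb8: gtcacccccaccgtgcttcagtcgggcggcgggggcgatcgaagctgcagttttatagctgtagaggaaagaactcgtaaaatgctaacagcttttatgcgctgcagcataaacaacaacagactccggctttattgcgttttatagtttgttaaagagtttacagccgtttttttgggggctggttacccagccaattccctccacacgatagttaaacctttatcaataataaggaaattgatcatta
Nfe2l1: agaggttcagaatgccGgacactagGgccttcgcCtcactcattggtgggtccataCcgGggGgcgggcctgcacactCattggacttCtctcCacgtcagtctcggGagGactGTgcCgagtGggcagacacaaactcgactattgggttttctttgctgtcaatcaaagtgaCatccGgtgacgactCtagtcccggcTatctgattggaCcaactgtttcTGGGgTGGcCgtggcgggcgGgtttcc

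The Hoxa10 stretch (chr6:52240855-52241104, minus strand) held 2 reads and 7 CG dinucleotides. The Hoxa5 stretch (chr6:52204588-52204837, minus strand) held 0 reads and 28 CG dinucleotides, and the Hoxb8 stretch (chr11:96281655-96281904, plus strand) held 0 reads with 12. The Hoxa7 stretch (chr6:52218574-52218823, minus strand) held 1 read and 7 CG dinucleotides; its RefSeq start lies 3281 bases into the gene as GENCODE annotates it. The Nfe2l1 stretch (chr11:96829969-96830218, minus strand) held 55 reads at 31 positions, with 14 CG dinucleotides. The letters CG, which read the same on both strands, occurred in 24 of 24 Hox promoter entries, against 92.2% of 32619 promoters in the table; the median was 12.5 per Hox entry, against 6 over the table.

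In the 250 bases before the GENCODE starts, the 39 Hox genes together had 7 and 6 reads in Step2, 7 and 12 in Step1, and 10 and 6 in Con. Their density there was 0.740 to 1.66 times the genome mean (median 1.18). All protein-coding genes stood at 2.27 to 6.05 times the genome mean (median 2.76). The ratio of Hox to all starts averaged 0.357 and was below 1 in 6 of 6 libraries (exact paired sign permutation, two-sided, p = 0.03125, the smallest that 6 libraries can give). This window was chosen after the data were seen.

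**Figure D1:**
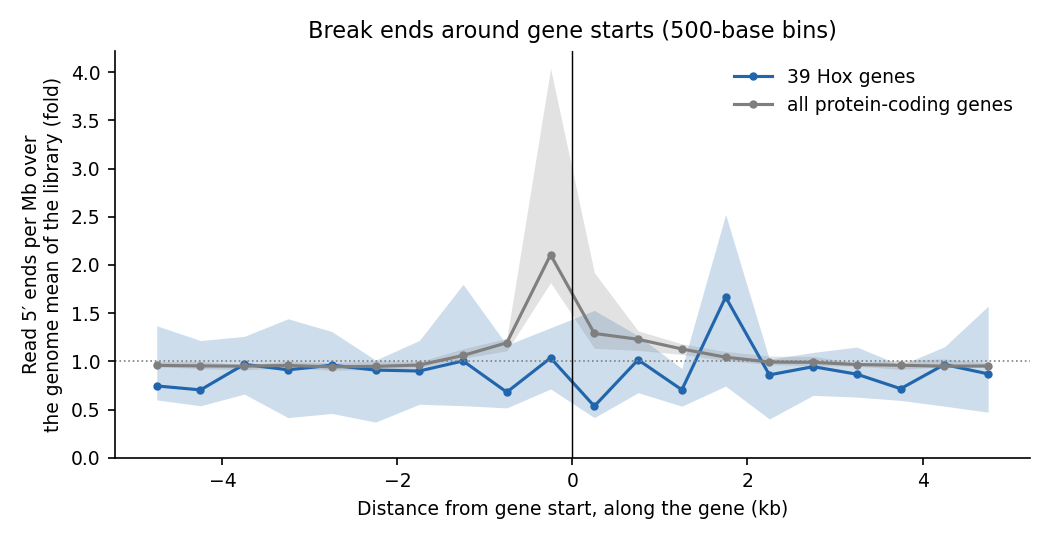
Read 5′ ends around gene starts in 500-base bins, as fold over genome (vertical axis), against distance from the start along the gene in kb (horizontal axis); lines are medians and bands the range over the 6 libraries, blue for the 39 Hox genes and grey for all protein-coding genes. In the bin just before the start the Hox median was 1.04, against 2.11 for all genes, and the bands there did not overlap.

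Break-end density around all gene starts peaked in the 500 bases before the start, at a median of 2.11 times the genome mean (1.82 to 4.04 over the libraries). Hox genes showed a median of 1.04 there (0.715 to 1.35). In the 500 bases after the start the Hox median was 0.536 (0.417 to 1.53), against 1.29 (1.14 to 1.92) for all genes. The highest Hox value came further in, from 1.5 to 2 kb past the start, with a median of 1.67 (0.744 to 2.52), against 1.04 for all genes. That bin held 147 reads at 91 positions when windows were summed gene by gene, of which 22 reads belonged to Hoxa10, 16 of them at a single position in 1 Con library. Hoxd3 and Hoxd4 start 2 bases apart, so their windows count the same 10 reads each.

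Within 1 kb of the starts, the main window, Hox genes had 58 and 32 reads in Step2, 57 and 48 in Step1, and 42 and 52 in Con. These were 39.8 and 22.6 CPM in Step2, 24.99 and 24.7 CPM in Step1, and 19.1 and 23.8 CPM in Con. The first Step2 library stood above the other 5, which lay between 19.1 and 24.99 CPM. Its 95% Wilson interval of 30.8 to 51.4 CPM, which covers counting error only, as do all such intervals here, met that of its partner (16.0 to 31.9 CPM). As fold over genome the pooled Hox starts were at 1.36 and 0.773 in Step2, 0.856 and 0.847 in Step1, and 0.653 and 0.816 in Con. All protein-coding starts were at 1.35 and 1.43 in Step2, 1.27 and 1.41 in Step1, and 1.48 and 2.02 in Con. Hox starts were below all starts in 5 of 6 libraries, at an average ratio of 0.583 (mean log2 ratio -0.78 ± 0.47, SD, n = 6; exact paired sign permutation p = 0.0625). The first Step2 library was the exception, with a ratio of 1.007. Without it the mean log2 ratio was -0.94, and with 1 read per position and strand the ratio was below 1 in all 6 libraries (average 0.609, exact p = 0.03125).

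**Figure D2:**
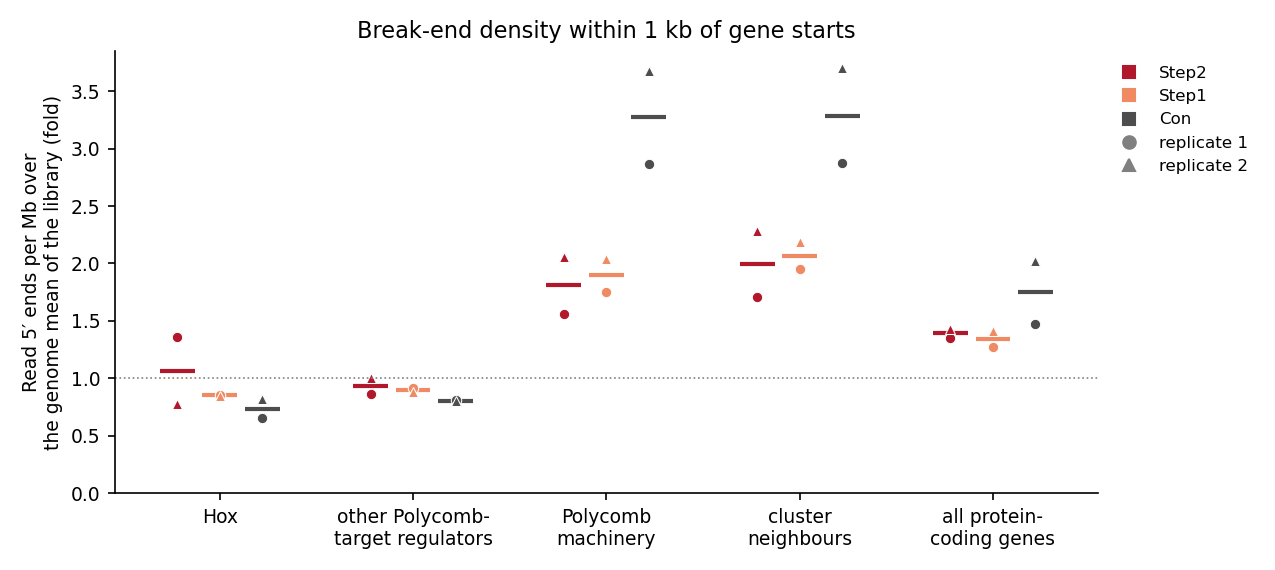
Fold over genome within 1 kb of gene starts (vertical axis) for Hox genes, 3 gene lists and all protein-coding genes; each point is 1 library (circle replicate 1, triangle replicate 2), short bars are group means, and groups run Step2, Step1, Con from left to right. Hox genes lie between 0.653 and 1.36, other Polycomb-target regulators between 0.800 and 1.00, and Polycomb machinery and neighbours lie at 1.56 or above in every library.

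Lists of related genes place the Hox values. The 63 other Polycomb-target regulators, developmental transcription factor genes that Polycomb also marks in many tissues, had a median start density of 0.870 times the genome mean (0.800 to 1.00). Hox starts could not be told from them: the average ratio was 0.983, below 1 in 4 of 6 libraries, with a range of 0.772 to 1.58 (exact p = 0.84375). The 32 genes of the Polycomb machinery itself, which encode the subunits of both repressive complexes, were at a median of 2.05 (1.56 to 3.68). The 19 neighbours, of which Evx2 starts inside the flank added to Hoxd, were at 2.23 (1.71 to 3.70). Hox starts were below both in 6 of 6 libraries, at 0.387 and 0.364 times their density (exact p = 0.03125 for each, 0.117 after Benjamini-Hochberg adjustment over the 15 ratios computed). Ezh2, the methyltransferase of Polycomb complex 2, supplied 170 of the 688 machinery reads. Without it the machinery median was 1.63 and the ratio of Hox starts 0.483. The base composition of these windows also differed: 55.8% G or C for Hox starts, 57.7% for other Polycomb targets, 59.0% for the machinery and 51.5% for the neighbours, with observed over expected CG of 0.610, 0.678, 0.765 and 0.584 in that order. Its part in the ratios was not tested. The 14 Trithorax and demethylase genes, which oppose Polycomb, were at a median of 1.83 (1.40 to 3.31). The 9 TALE cofactor genes, whose products bind DNA with Hox proteins, were at 1.13 (0.872 to 2.34).

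Single Hox starts held few reads. Over all 6 libraries the 39 starts had a median of 6 reads each (quartiles 4 and 8.5, highest 27), against a median of 10 for 21755 starts. At the genome mean density a start region of 2001 bases would hold 8.98 reads. None of the 39 reached 50 reads, against 3.09% of all starts. Hoxc5 and Hoxc10 start within 2 kb of each other, as do Hoxd3 and Hoxd4, so these pairs share reads. Of the 39 starts 1 was empty (2.56%), close to the 2.48% of all protein-coding starts. It was Hoxa4, which shapes neck vertebrae in the mouse. Its 0 of 11486258 reads allow up to 3 counts or 0.261 CPM.

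Hoxb13, a gene of the tail end of the body and the prostate, had 4 and 0 reads in Step2, 6 and 3 in Step1, and 2 and 12 in Con, with 8 of the last 12 at 1 position. Hoxa5, which acts in lung and thoracic skeleton, had 2 and 1 in Step2, 3 and 2 in Step1, and 1 and 8 in Con. Its groups overlapped.

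Hoxa7, a thoracic segment gene, had 2 and 5 reads in Step2, 0 and 4 in Step1, and 2 and 2 in Con. Hoxa3, needed for thymus and parathyroid, had 4 and 0 in Step2, 4 and 2 in Step1, and 0 and 2 in Con. Hoxa9, a regulator of blood stem cells, had 2 and 2 in Step2, 1 and 1 in Step1, and 2 and 2 in Con, the same in both libraries of each group. Hoxb2, a hindbrain gene, had 3 and 1 in Step2, 1 and 1 in Step1, and 3 and 1 in Con. At these depths no difference was detectable for any of them.

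Hoxa10, which patterns the lumbar region and the uterus, had start reads in every Step library and in neither Con library. The counts were 5 and 3 reads in Step2, 3 and 2 in Step1, and 0 and 0 in Con. A count of 0 allows up to 3 reads in a library, so no fold is given. Hoxd9, a limb and lumbar gene, showed the same pattern with 3 and 1 reads in Step2, 2 and 1 in Step1, and 0 and 0 in Con. Hoxa10 and Hoxd9 were 2 of 39 starts and were singled out for this pattern after their values were seen. The share of all protein-coding starts with the same pattern was not counted, so 2 of 39 cannot be called unusual.

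By cluster, starts of Hoxa had 16.5 and 11.3 CPM in Step2, 11.4 and 9.79 CPM in Step1, and 6.35 and 9.16 CPM in Con. Starts of Hoxd had 4.80 and 4.94 CPM in Step2, 4.38 and 3.61 CPM in Step1, and 1.82 and 2.75 CPM in Con. In both clusters all 4 Step libraries lay above both Con libraries, on 41 reads in all for Hoxd and 119 for Hoxa (exact permutation of the libraries between groups, two-sided, p = 0.33 for each, and 2 against 2 cannot give less). Starts of Hoxb had 10.97 and 3.53 CPM in Step2, 7.45 and 6.70 CPM in Step1, and 4.99 and 9.62 CPM in Con. Starts of Hoxc had 7.54 and 2.82 CPM in Step2, 1.75 and 4.64 CPM in Step1, and 5.90 and 2.29 CPM in Con. The groups overlapped in both.

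Paralog groups mark a gene's place from front to back of the body. Starts of groups 9 to 13, the posterior genes, were at a median of 0.780 times the genome mean (0.689 to 1.26), those of groups 4 to 8 at 0.756 (0.426 to 1.23) and those of groups 1 to 3, the anterior genes, at 1.00 (0.677 to 1.64). Posterior over anterior starts averaged a ratio of 0.765, below 1 in 5 of 6 libraries (exact p = 0.0625, adjusted 0.156). With 1 read per position and strand the ratio was 0.845 (exact p = 0.1875).

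Whole clusters had close to the genome's mean density. The 4 clusters together held 364 and 265 reads in Step2, 482 and 436 in Step1, and 445 and 458 in Con. As fold over genome these were 1.12 and 0.837 in Step2, 0.946 and 1.00 in Step1, and 0.904 and 0.939 in Con. The average ratio was 0.954, below 1 in 4 of 6 libraries (exact p = 0.3125). With soft-masked repeats left out of clusters and genome it was 0.901, below 1 in 5 of 6 libraries (exact p = 0.0625). Against the 500 kb on each side the average was 0.876, below 1 in 5 of 6 libraries (exact p = 0.0625), where the flanks themselves stood at 1.02 to 1.11 times the genome mean. Hoxd was the sparsest cluster, at 1.10 and 0.757 in Step2, 0.807 and 0.959 in Step1, and 0.895 and 0.722 in Con. It stood at 0.774 times its own flanks (exact p = 0.0625, adjusted 0.156). Hoxc stood at 0.841 times its flanks, below 1 in 6 of 6 libraries (exact p = 0.03125, adjusted 0.117), Hoxa at 0.927 and Hoxb at 0.959. With 1 read per position and strand Hoxc stood at 0.895 times its flanks, below 1 in 5 of 6 libraries (exact p = 0.0625). Within the clusters, start regions averaged 0.891 times the density of the remaining sequence (5 of 6 libraries below 1, exact p = 0.21875).

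**Figure D3:**
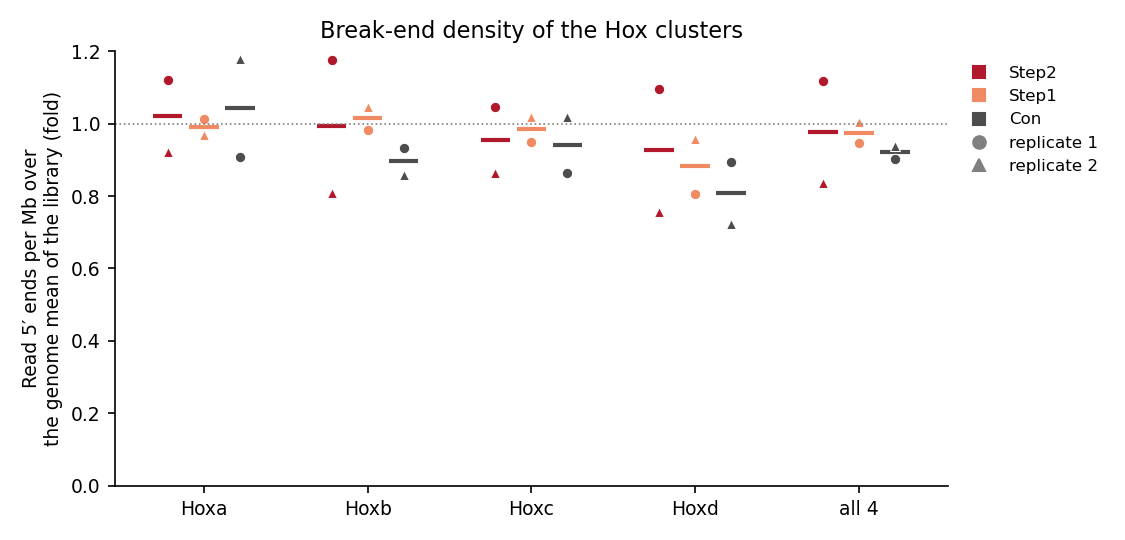
Fold over genome (vertical axis) of each Hox cluster and of all 4 together; each point is 1 library (circle replicate 1, triangle replicate 2), short bars are group means, and groups run Step2, Step1, Con from left to right. All values lie between 0.722 and 1.18, and the 2 Step2 libraries are the farthest apart when the clusters are pooled.

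Density along the clusters was taken in 113 bins of 5 kb. Of these, 38 had a median over the 6 libraries above the genome mean and 0 had a median above 2 times that mean. The shares of such bins over the genome were not counted, so neither count can be called high or low. The 3 highest medians were in Hoxc: 1.72 and 1.69 in bins 115 and 125 kb into the region, which hold no Hox start, and 1.66 in the bin with the start of Hoxc13, a hair and nail gene. The lowest was also in Hoxc, at 0.224, with 9 reads in all. The 37 bins with a Hox start had a median of 0.702 and the others 0.891.

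**Figure D4:**
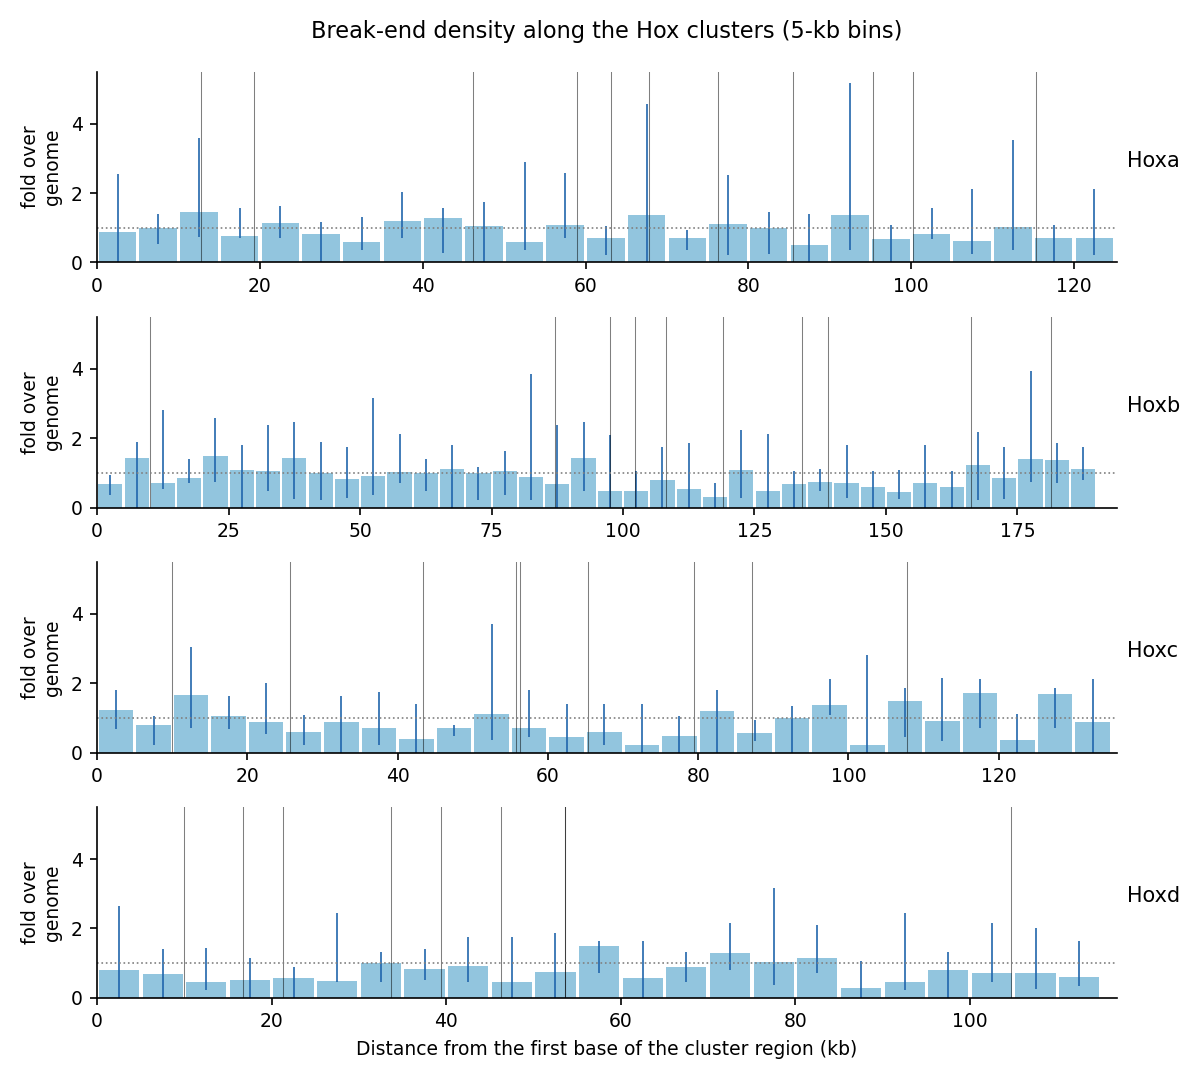
Fold over genome in 5-kb bins along the 4 cluster regions (vertical axis), against distance in kb from the first base of each region on the plus strand (horizontal axis); bars are medians over the 6 libraries, thin lines run from the lowest to the highest library, and upright lines mark Hox starts. No bar reaches 2, and single libraries reach up to 5.16.

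Most end positions in the clusters were hit in 1 library only. The 2450 reads lay at 2030 positions, of which 25 (1.23%) were hit in at least 2 libraries and 1 in at least 3. The same share over the genome was not counted, so this one cannot be called low or high. Among the positions with the most reads, the highest held 16 reads and others 9, 8 and 8. The 16 were all from Con replicate 2, inside Hoxa10 (mm10 chromosome 6, base 52239160, plus strand). The 9 lay outside annotated Hox genes (chromosome 6, base 52150578, minus strand), 8 of them from Con replicate 1. A position with 8 reads was inside Hoxd11 (chromosome 2, base 74687008, plus strand), with 7 reads of Step2 replicate 1 and 1 of Step2 replicate 2, and the other in Hoxb13 (chromosome 11, base 96194849, minus strand), with 8 reads of Con replicate 2. Reads per position in the clusters ran from 1.09 to 1.36, as in the genome (1.13 to 1.37).

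The question the 3 groups raise is whether break ends shifted into or out of the clusters. No cluster was called in any comparison. Each cluster was added as a row to a table of 100-kb windows and fitted with limma over all 25386 rows tested. Of those rows, 0.0906% were called (adjusted p under 0.05) for Step2 minus Con, 0.0158% for Step1 minus Con and 0.0394% for Step2 minus Step1, and 0 of the 4 clusters were among them. With 1 read per position and strand 0 of 4 were called, beside 0.0197% of 25339 rows for Step2 minus Con, 0% for Step1 minus Con and 0.00789% for Step2 minus Step1. No cluster had an unadjusted p under 0.05 either: the lowest was 0.396. For Step2 minus Con the log2 fold changes (± SE) were -0.02 ± 0.21 for Hoxa, 0.13 ± 0.20 for Hoxb, 0.02 ± 0.20 for Hoxc and 0.19 ± 0.22 for Hoxd. For Step1 minus Con they were -0.06 ± 0.20, 0.18 ± 0.21, 0.07 ± 0.20 and 0.12 ± 0.20 in the same order. For Step2 minus Step1 they were 0.04 ± 0.21, -0.06 ± 0.21, -0.05 ± 0.20 and 0.06 ± 0.22. The 95% intervals ran from -0.47 at the lowest to 0.62 at the highest.

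**Figure D5:**
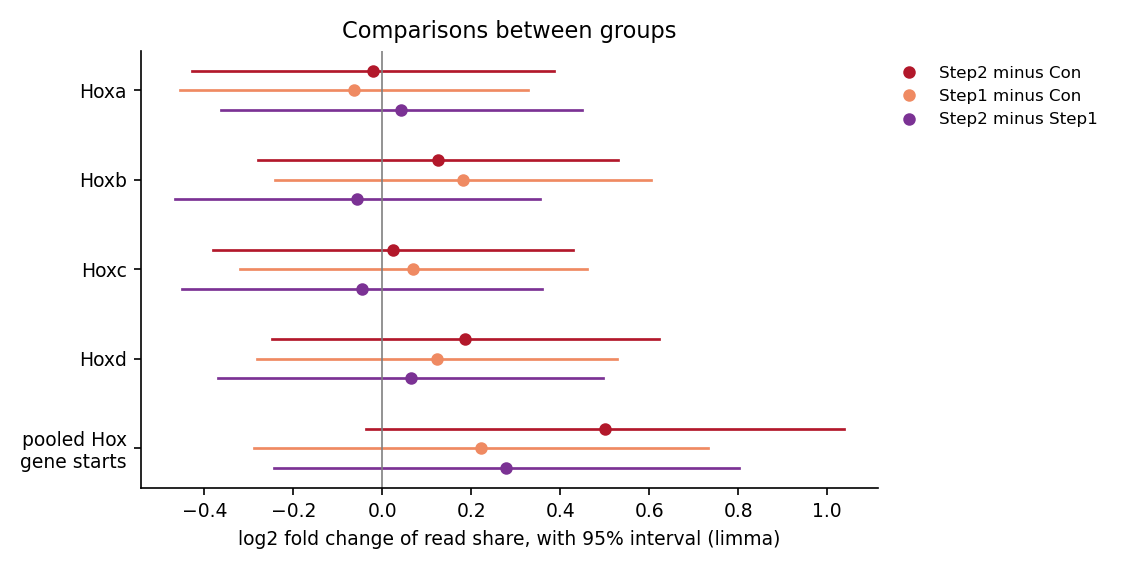
Log2 fold changes of the share of reads (horizontal axis) with 95% intervals from limma for the 4 Hox clusters and the pooled Hox starts; colours give the 3 comparisons. Every interval includes 0, and the widest reach is that of the pooled starts for Step2 minus Con.

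The pooled Hox starts were not called in any comparison. The log2 fold change was 0.50 ± 0.27 for Step2 minus Con (limma adjusted p = 0.635; 95% interval -0.04 to 1.04). It was 0.22 ± 0.26 for Step1 minus Con (adjusted p = 0.901) and 0.28 ± 0.26 for Step2 minus Step1 (adjusted p = 0.999). The Step2 values rest on the first Step2 library: without it the change was 0.09 for Step2 minus Con and -0.13 for Step2 minus Step1.

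The share of starts over the genome that were lower depended on the minimum of reads. Of the 917 start regions with enough reads to fit (at least 10 in at least 2 libraries), 92.3% were lower for Step2 minus Con (median log2 -1.19) and 90.5% for Step1 minus Con (median -0.95); 0.109% were called in each. For Step2 minus Step1 0% were called and 63.1% were lower. A start can meet that minimum through the Con libraries alone, and no Hox start passed it. With no minimum, 48.7% of 21216 starts were lower for Step2 minus Con (median log2 0.0098) and 52.1% for Step1 minus Con (median -0.12). There, 38 of 39 Hox starts entered and 0 were called, against 0.00471% of all regions for Step2 minus Con and 0.0141% for Step1 minus Con and for Step2 minus Step1. With 1 read per position and strand, 478 regions were fitted, none of a Hox gene, and 0.628%, 4.18% and 0.837% were called for Step2 minus Con, Step1 minus Con and Step2 minus Step1. Hox over all starts was a ratio of 1.007 and 0.541 in Step2, 0.672 and 0.600 in Step1, and 0.442 and 0.404 in Con. Both Step groups lay above Con in this ratio (exact permutation p = 0.33 for each, the smallest possible). Its denominator, all protein-coding starts, was itself lower in all 4 Step libraries than in both Con libraries. The CPM of Hox starts alone, given above, overlapped between Step2 and Con, and in Step1 lay above both Con libraries. Other Polycomb-target starts had 42.5 and 49.4 CPM in Step2, 45.2 and 43.3 CPM in Step1, and 39.9 and 39.4 CPM in Con. Polycomb machinery starts had 39.1 and 51.5 CPM in Step2, 43.8 and 51.0 CPM in Step1, and 71.7 and 92.1 CPM in Con. Neighbour starts had 25.4 and 33.9 CPM in Step2, 28.9 and 32.4 CPM in Step1, and 42.7 and 55.0 CPM in Con. The machinery and neighbour lists were lower in all 4 Step libraries than in both Con libraries, and the Polycomb-target list was higher. With 1 read per position and strand the first 2 orders held, but the Polycomb-target groups overlapped, at 48.6 ± 4.05 CPM in Step2, 43.1 ± 0.148 CPM in Step1 and 43.8 ± 2.95 CPM in Con (SD, n = 2 each). With all reads, each of these comparisons reached only the smallest exact p of 0.33. All protein-coding starts pooled, given above as fold over genome, were also lower in all 4 Step libraries than in both Con libraries. The lower order was therefore not particular to the machinery and neighbour lists.

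Of the 39 Hox gene bodies, 9 had at least 10 reads in 2 libraries and entered the fit over 13811 genes. With Hoxa3 running over Hoxa4 to Hoxa6, Hoxc5 over Hoxc6 to Hoxc10, and Hoxd3 over Hoxd4, 11 of the 39 bodies overlap another and share reads. None was called, beside 0.0941% of genes for Step2 minus Con, 0.123% for Step1 minus Con and 0.0434% for Step2 minus Step1. Among the 9, 1 had an unadjusted limma p under 0.05. That was Hoxa10 for Step1 minus Con, where 978 of the 13811 genes had such a p-value. Hoxa10 had 9 and 1 reads in Step2, 6 and 6 in Step1, and 12 and 22 in Con. Its log2 fold changes were -1.52 ± 0.85 for Step2 minus Con (limma adjusted p = 0.702) and -1.32 ± 0.64 for Step1 minus Con (limma adjusted p = 0.697). The 16 reads at one base in Con replicate 2 are part of that count, and with 1 read per position Hoxa10 had too few reads to be fitted. In that count 8 Hox bodies entered and 0 were called, beside 0.126% of 12715 genes for Step2 minus Con, 0.118% for Step1 minus Con and 0.0315% for Step2 minus Step1. With no minimum on reads all 39 bodies entered and 0 were called, beside 0.0236%, 0.0472% and 0.0142% of 21183 genes in the same order.

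The longest bodies held the most reads. Hoxa3 had 24 and 22 reads in Step2, 42 and 32 in Step1, and 29 and 41 in Con (log2 0.04 ± 0.33 for Step2 minus Con). Hoxc5 had 33 and 17 in Step2, 31 and 34 in Step1, and 33 and 31 in Con (log2 0.19 ± 0.34). Hoxd3, an axial skeleton gene, had 30 and 16 in Step2, 31 and 33 in Step1, and 35 and 20 in Con (log2 0.35 ± 0.37). The groups of all 3 overlapped.

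Hoxb3, a hindbrain and neck gene, had 11 and 10 reads in Step2, 20 and 8 in Step1, and 11 and 13 in Con, and the highest log2 fold change for Step2 minus Con, 0.43 ± 0.52. Hoxd4 had the highest for Step1 minus Con, 0.42 ± 0.45, on 10 and 7 reads in Step2, 17 and 16 in Step1, and 16 and 10 in Con. Hoxc4 followed at 0.34 ± 0.42 for Step1 minus Con. Hoxc6, a thoracic gene, had 8 and 3 reads in Step2, 14 and 13 in Step1, and 12 and 15 in Con. Its log2 fold changes were -0.73 ± 0.69 for Step2 minus Con and -0.79 ± 0.69 for Step2 minus Step1, the second being the lowest of the 9 bodies for that comparison. Hoxc13 was at -0.27 ± 0.69 for Step2 minus Con. All of these had adjusted p-values of 0.697 or more. Per kb, Hox bodies held a median of 4.01 reads over the 6 libraries (lowest 1.86, for Hoxd12), and the genome mean was 4.49.

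Among noncoding genes of the clusters, Hottip, a noncoding RNA gene at the posterior end of Hoxa, had 10 reads in all over 4.83 kb. Hotair in Hoxc had 16 over 3.67 kb and Haglr in Hoxd 53 over 14.5 kb. Their lengths differ, so the totals do not rank them by density. These 3 genes were chosen by name, after their values were seen.

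Genes that read or write the Polycomb state gave 1 call. Over all genes tested, 0.0941% were called for Step2 minus Con, 0.123% for Step1 minus Con and 0.0434% for Step2 minus Step1. Of the 32 machinery genes, 23 bodies were tested, and 1 fell, Jarid2, which guides Polycomb complex 2 to its targets. It held 159 and 119 reads in Step2, 210 and 235 in Step1, and 321 and 581 in Con. Its log2 fold change was -1.03 ± 0.19 for Step2 minus Con (limma adjusted p = 0.00827) and -0.91 ± 0.16 for Step1 minus Con (adjusted p = 0.00417), and neither call held with 1 read per position and strand. Pcgf1, the machinery gene with the most reads per kb, had 33 reads and was not tested. None of the 13 tested Trithorax and demethylase genes, 7 TALE cofactors, 29 other Polycomb-target regulators or 15 neighbours was called in any comparison. Their median log2 fold changes for Step2 minus Con were -0.21, -0.15, 0.16 and -0.05, beside -0.04 for all genes tested and 0.04 for the 9 Hox bodies. Genes with the most reads per kb were Kmt2b (log2 -0.58 ± 0.48 for Step2 minus Con) and Psip1 (-0.23 ± 0.34) among Trithorax genes, and Pknox1 (-0.01 ± 0.33) among TALE cofactors. Among Polycomb targets they were Osr2 and Myod1. Osr2 had 3 and 19 reads in Step2, 3 and 16 in Step1, and 2 and 2 in Con, so that both groups other than Con were split between their libraries. Myod1 had 16 reads and was not tested. Among neighbours, Cbx5 was at -0.47 ± 0.29 and Smug1 at -0.77 ± 0.56 for Step2 minus Con.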

How the data were processed

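The deposited files list 1 aligned read per line with a mapping quality score; the authors removed PCR duplicates by molecular identifier, per the series' design text, and used Bowtie2, SAMtools and bedtools with mm10, per the submitters' processing notes (versions not given in the sources used here). These deposited scores ran from 11 to 42. From these, 5′ ends were counted in Hox clusters, gene bodies, start regions and 100-kb windows, with all reads and with 1 read per position and strand, using Python 3.11.15 and numpy 2.4.6. Counts were fitted with limma 3.58.1 (voom, eBayes; R 4.3.3), 1 mean per group over all 6 libraries, two-sided, with Benjamini-Hochberg adjustment over the whole table at 0.05. Features needed at least 10 reads in 2 libraries. Densities were compared within libraries by exact sign permutation. Alternatives varied read counting, mapping quality, sequencing run, scaling, count minimum, weights, GC content, replicate block, region size and the libraries left in. Wilson intervals and limits from a count of 0 cover counting error only. Code was tested on simulated data. The Hox genes and the other lists were chosen with earlier results of these data known. Named genes were the 8 starts with the most reads and those with none, the 5 bodies with the largest change each way among those tested, 2 genes per list with the most reads per kb, and any gene called. Library size left out windows of 10 kb over 20 times the median (45). Some genes that this rule names are not reported here.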

Additional observations from a re-analysis of the deposited data

How the results depend on the processing

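Of 433 alternative values for 25 results, 392 kept their direction and their side of the threshold. No cluster or pooled start shift was called in any of 270 alternatives (lowest adjusted p 0.284, for pooled starts with a GC smooth removed), and 0 Hox bodies or starts were called in all 114 alternative counts. The uncalled log2 shifts of clusters changed sign as follows, and the cause was not tested. With reads of sequencing run 1 only, Step2 minus Con was -0.039 for Hoxb, -0.20 for Hoxc and -0.15 for Hoxd, Step1 minus Con was -0.16 for Hoxc and -0.0035 for Hoxd, and Step2 minus Step1 was -0.10 for Hoxa and -0.15 for Hoxd. With run 2 only, Hoxa was 0.17 for Step2 minus Con. With no cluster flank, Step2 minus Con was 0.045 for Hoxa and -0.026 for Hoxc, and Step1 minus Con was 0.016 for Hoxa. With a 50 kb flank, Hoxa was 0.063 for Step2 minus Con, and Step2 minus Step1 was 0.022 for Hoxb, 0.035 for Hoxc and -0.13 for Hoxd. With 1 read per position and strand, Hoxa was 0.032 for Step2 minus Con and Hoxc 0.11 for Step2 minus Step1. With mapping quality of at least 30, Hoxc was -0.0053 for Step2 minus Con. Hox starts over the rest of the clusters was 0.011 with a 2 kb start region.

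Hox starts over all starts passed the threshold (exact p = 0.03125) at log2 -0.72 with 1 read per position, -0.78 in run 1, -1.06 with 500 bases and -1.49 in the 250 bases before the start, the last chosen after seeing the data. Clusters over flanks passed at -0.21 in run 1 and -0.24 without repeats. Leaving out each library in turn, Step2 minus Con ran from -0.21 to 0.17 for Hoxa, -0.14 to 0.39 for Hoxb, -0.11 to 0.16 for Hoxc, -0.081 to 0.45 for Hoxd and 0.09 to 0.90 for pooled starts. Step1 minus Con ran from -0.25 to 0.13 for Hoxa, 0.12 to 0.24 for Hoxb, -0.053 to 0.18 for Hoxc, -0.035 to 0.27 for Hoxd and 0.06 to 0.38 for pooled starts. Step2 minus Step1 ran from -0.10 to 0.18 for Hoxa, -0.32 to 0.21 for Hoxb, -0.19 to 0.088 for Hoxc, -0.21 to 0.32 for Hoxd and -0.13 to 0.68 for pooled starts. The density of Hox starts over all starts ran from -0.94 to -0.67.

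Replicate numbers are shared by the groups, but same-numbered libraries deviated together only weakly (correlations of 0.00987 to 0.0106 over 25386 windows), so the numbers were not taken as pairs. With the replicate number as a block, pooled starts were at 0.53 for Step2 minus Con (adjusted p = 0.559), 0.23 for Step1 minus Con and 0.31 for Step2 minus Step1, and no call changed. Depth limits single genes most: no Hox start had over 12 reads in a library.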
